A study of Homo sapiens with 6 samples.

Results

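The transcripts described here encode 10 proteins that make cAMP, control its synthesis or read it downstream of adrenergic receptors. They are 5 adenylyl cyclases (ADCY1, ADCY3, ADCY6, ADCY7 and ADCY9), 4 G protein alpha subunits (GNAS, GNAI1, GNAI2 and GNAI3) and EPAC1, encoded by RAPGEF3. They were taken by gene name, and all 10 were found among the 26025 genes of the deposited table. RNA was sequenced from the human line NCI-H1299, which stems from a non-small cell lung cancer. The 3 NE libraries came from cells given 10 µM NE (norepinephrine) for 48 h, and the 3 Ctrl libraries from cells given vehicle only, for which the sample titles name DMSO and the treatment protocol PBS. All 6 libraries came from cells that were first kept in DMEM for 8 to 12 h, which is starvation in the study's methods, and then held in RPMI-1640 with 2% FBS. No source states that the replicates were separate cultures, so p-values measure the spread between these libraries, which may be technical. The comparison asks which transcripts of this cascade differ after NE. The data hold 1 cell line, 1 dose and 1 time point, and in bulk RNA fewer expressing cells cannot be told apart from less RNA per cell.

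Background helps to order these genes. A beta-adrenergic receptor bound by NE activates Gs alpha, the product of GNAS, which switches on membrane adenylyl cyclases that turn ATP into cAMP. Gi alpha proteins, products of GNAI1, GNAI2 and GNAI3, are activated by other receptors, among them alpha2-adrenergic receptors, and inhibit several cyclases. The cyclases differ in control: ADCY1 and ADCY3 are regulated by calmodulin, ADCY7 is stimulated by G beta-gamma together with Gs, ADCY6 is inhibited by Gi and by calcium, and ADCY9 responds poorly to forskolin. The cAMP that is made activates PKA and EPAC1, an exchange factor that loads the small GTPases RAP1 and RAP2 with GTP.

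The libraries held 16852751 to 17979206 reads on genes. Values are normalized counts, which the authors obtained by dividing the reads of each gene by a single factor for the library, and they are given in the order of replicates 1, 2 and 3. The test was limma on log2(value + 1), run over 15013 genes whose mean reached 10 normalized counts, and a gene passed it at a Benjamini-Hochberg adjusted p under 0.05. The added 1 pulls the fold changes of low genes towards 0 compared with a smaller addition. With NE, 50.1% of all tested genes passed this test, 24.6% higher and 25.5% lower, so passing it does not by itself set a gene apart. In genes, these were 3693 higher and 3828 lower, and with FPKM recomputed from the reads 4457 and 2942. Fold changes were lower where exons were richer in GC (Spearman -0.644 between log2 fold change and GC content across genes, which are not independent replicates). Ctrl replicate 3 stood apart, with 7305 genes at 0 reads against 3954 to 4833 in the other libraries. Its deviations from the Ctrl mean correlated with GC content at -0.511 across genes, against 0.483 and 0.364 in the other Ctrl libraries. The deviations of a gene sum to 0 over the Ctrl libraries, so the opposite signs are not independent of each other. The changes of the tested members are therefore also given after the GC trend of each library was removed. The summed KRT8, KRT18 and VIM level was 99416 to 105896 normalized counts in Ctrl and 57211 to 72367 in NE. Leukocyte, endothelial and fibroblast markers summed to at most 4.19, 52.9 and 35.6 normalized counts in any library. PTPRC and CD3E are not listed in the table.

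Of the 9 members with enough reads to be tested, 2 rose with NE (GNAI1 and GNAI3), 5 fell (RAPGEF3, ADCY7, GNAI2, ADCY3 and GNAS) and 2 did not pass the test (ADCY6 and ADCY9). ADCY1, with a mean of 9.85 normalized counts, was under the minimum. In 3 members (GNAI1, GNAI3 and ADCY6) all NE libraries lay above and in 5 (those that fell) all lay below the Ctrl libraries, where 29.7% and 28.9% of the tested genes did so (58.6% in all). The numbers that rose and fell were also 2 and 5 without Ctrl replicate 3. When any other library was left out, 1 rose and 3 or 4 fell. RAPGEF3 also met the 2-fold criterion of the study's methods, as did 6.55% of all tested genes in that direction. No member met it upwards, against 7.47% of the genes. After the GC correction 1 member was higher (ADCY6) and 2 were lower (RAPGEF3 and GNAI3), where 14.6% of all genes were higher and 17.7% lower (32.2% in all). RAPGEF3 was thus the member that was past the threshold in the same direction in both fits.

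**Figure D1:**
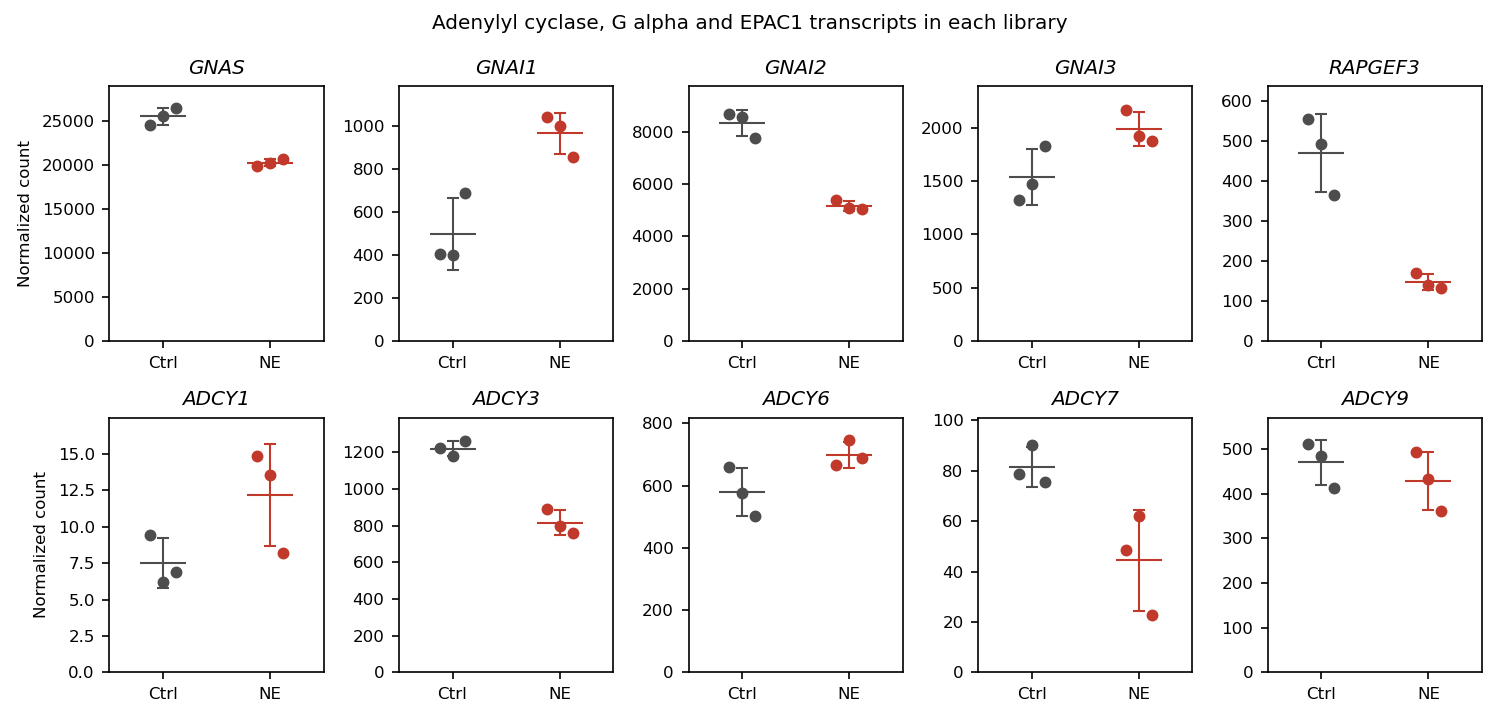
Normalized counts of the 10 transcripts in each of the 3 Ctrl (grey) and 3 NE libraries (red), 1 panel per gene, with the mean as a horizontal line, the SD as an error bar and every axis starting at 0. The groups overlap for ADCY1 and ADCY9, and all NE libraries of RAPGEF3 lie under 364 normalized counts, its lowest Ctrl value.

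The promoters of RAPGEF3, which fell most, and of the 3 Gi alpha genes, which differed in direction before the GC correction, were read from RefSeq (GRCh38.p14, the build family of hg38, to which the authors aligned). Each stretch runs from 250 bases before to 10 bases after the start of the canonical transcript, 5′ to 3′ on the strand of the gene. Capitals mark the CRE core TGACG, the first bases of the cAMP response element that CREB binds, searched on both strands.
RAPGEF3, chr12:47758871-47759130, minus strand: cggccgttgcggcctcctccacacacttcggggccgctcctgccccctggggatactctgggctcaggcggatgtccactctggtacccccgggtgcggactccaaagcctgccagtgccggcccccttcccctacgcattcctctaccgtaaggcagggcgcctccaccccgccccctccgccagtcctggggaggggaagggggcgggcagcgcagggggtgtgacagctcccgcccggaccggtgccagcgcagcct
GNAI1, chr7:80134581-80134840, plus strand: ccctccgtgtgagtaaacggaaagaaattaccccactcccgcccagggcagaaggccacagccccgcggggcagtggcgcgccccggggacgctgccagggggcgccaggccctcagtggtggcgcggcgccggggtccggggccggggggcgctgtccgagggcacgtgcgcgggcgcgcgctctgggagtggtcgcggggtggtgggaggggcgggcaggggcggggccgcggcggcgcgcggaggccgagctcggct
GNAI2, chr3:50235954-50236213, plus strand: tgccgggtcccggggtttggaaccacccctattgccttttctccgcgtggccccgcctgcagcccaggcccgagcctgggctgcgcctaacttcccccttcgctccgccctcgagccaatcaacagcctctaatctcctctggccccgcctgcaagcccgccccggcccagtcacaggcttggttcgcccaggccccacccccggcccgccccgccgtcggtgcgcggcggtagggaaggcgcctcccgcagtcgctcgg
GNAI3, chr1:109548365-109548624, plus strand: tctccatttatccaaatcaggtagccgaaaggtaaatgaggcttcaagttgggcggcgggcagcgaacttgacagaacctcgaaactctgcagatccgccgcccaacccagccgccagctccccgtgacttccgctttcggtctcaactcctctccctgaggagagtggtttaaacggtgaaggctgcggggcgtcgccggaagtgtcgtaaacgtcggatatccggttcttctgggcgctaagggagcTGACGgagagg
Of these 4 stretches only that of GNAI3 held the motif, once, and its first base is the last before the start. RefSeq gave 20 windows of 300 bases for 8 of the 10 members, all but ADCY6 and ADCY9, several of which have more than 1 start, and those of GNAS stand at starts other than that of its canonical transcript. None of the 20 windows held the full palindrome TGACGTCA, which 1.85% of all 35116 windows held. TGACG, which is also part of the full palindrome, stood in 8 of the 20 windows, against 24.6% of all windows. The 8 were windows of ADCY1, ADCY3, GNAS, GNAI2 and GNAI3. The 2 windows of ADCY1 overlap and hold the same match. These matches are letters in a window and carry no information on binding.

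RAPGEF3 (ENSG00000079337) lies on chromosome 12 from 47734363 to 47771040 on the minus strand in hg38. It had 554, 493 and 364 normalized counts in Ctrl and 170.0, 138 and 132 in NE. All NE libraries were below all Ctrl libraries, and Ctrl replicate 3 was the lowest of the Ctrl libraries. The mean went from 470.0 ± 97.2 (SD, n = 3) to 147 ± 20.1 (SD, n = 3), a log2 fold change of -1.66 (standard error 0.187, 95% confidence interval -2.08 to -1.24, limma adjusted p = 0.000233). Of all tested genes, 0.893% had a lower log2 fold change. The fall was -1.13 after the GC correction (limma adjusted p = 0.000562) and -1.83 without Ctrl replicate 3, and it had an adjusted p under 0.05 in all 23 fits, with log2 fold changes from -1.83 to -1.13. In its exons 15.2% of the bases are also exons of RPAP3-DT and 0.686% of SLC48A1, both on the opposite strand. Without strand the reads of such bases cannot be told apart. RPAP3-DT had 26.6 ± 16.8 normalized counts in Ctrl and 25.4 ± 7.54 in NE (SD, n = 3), and SLC48A1, a heme transporter gene, fell by 0.889 on the log2 scale (limma adjusted p = 0.000375), with -0.38 after the GC correction (limma adjusted p = 0.00817).

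RAPGEF4 encodes EPAC2, the paralog of EPAC1 best known from neurons and endocrine cells. It had 30.4, 28.0 and 18.6 normalized counts in Ctrl and 56.3, 56.2 and 49.3 in NE. The NE libraries all lay above those of Ctrl, at a low level. RAPGEF4 rose, with a log2 fold change of 1.07 (limma adjusted p = 0.0125), and the value was 0.72 after the GC correction (limma adjusted p = 0.0983). Per length, the RAPGEF3 level was 10.9 times that of RAPGEF4 in Ctrl and 1.60 times in NE (geometric means, n = 3). The log2 ratio was 3.42, 3.37 and 3.52 in the Ctrl libraries and 0.829, 0.537 and 0.660 in the NE libraries, which did not overlap (two-sided exact permutation p = 0.1, the lowest that 3 against 3 allow). The difference was -2.76 on the log2 scale and -1.88 after the GC correction.

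GNAS, the gene of Gs alpha (ENSG00000087460), lies on chromosome 20 from 58839718 to 58911192 on the plus strand in hg38, an imprinted locus with several alternative first exons that the gene counts do not separate. It had 24578, 25546 and 26499.5 normalized counts in Ctrl and 19869.7, 20259 and 20677 in NE. The NE libraries were all lower, and the 3 libraries of each group lay close together. GNAS fell, from 25541 ± 961 (SD, n = 3) to 20268 ± 404 (SD, n = 3) normalized counts, a log2 fold change of -0.33 (standard error 0.0899, 95% confidence interval -0.54 to -0.13, limma adjusted p = 0.013). It was -0.14 after the GC correction (limma adjusted p = 0.282), -0.32 when the trend with gene length was removed as well (limma adjusted p = 0.0242) and 0.03 with quantile normalization (limma adjusted p = 0.836). Without Ctrl replicate 2 or NE replicate 2 the adjusted p was 0.061 and 0.0606 from limma. GNAS-AS1, the antisense gene of the locus, shares 5.07% of the exon bases and had 23.5 ± 14.9 and 13.7 ± 2.44 normalized counts in Ctrl and NE (SD, n = 3).

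GNAL encodes G alpha olf, which also stimulates adenylyl cyclases and is best known from olfactory neurons and the striatum. It had 45.0, 50.8 and 57.8 normalized counts in Ctrl and 324, 279 and 279 in NE. All NE libraries were several times above all Ctrl libraries. GNAL rose from 51.2 ± 6.40 (SD, n = 3) to 294 ± 26.2 (SD, n = 3) normalized counts, a log2 fold change of 2.50 (standard error 0.176, 95% confidence interval 2.11 to 2.90, limma adjusted p = 3.37e-05), and by 2.59 after the GC correction (limma adjusted p = 9.16e-06). Per length it stayed far below GNAS, at 0.349 ± 0.0498 FPKM in Ctrl and 2.19 ± 0.115 in NE, against 63.9 ± 3.51 and 55.7 ± 3.46 for GNAS (merged exon length, SD, n = 3). MPPE1, a phosphoesterase gene on the opposite strand, shares 27.7% of the GNAL exon bases and had a log2 fold change of 0.118 (limma adjusted p = 0.477), and -0.14 after the GC correction (limma adjusted p = 0.395).

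Before the GC correction, GNAI1 and GNAI3 rose and GNAI2 fell. With the correction, over all 6 libraries, none of the 3 kept its call in the same direction, whereas GNAI2 kept it when the trend with gene length was removed as well. GNAI1 (ENSG00000127955, chromosome 7 from 79768028 to 80226181 on the plus strand) had 404, 398 and 689.9 normalized counts in Ctrl and 1041, 999 and 857 in NE. The NE libraries were all higher, and Ctrl replicate 3 lay between the other Ctrl libraries and the NE libraries. GNAI1 rose, with a log2 fold change of 0.9996 (standard error 0.208, 95% confidence interval 0.53 to 1.47, limma adjusted p = 0.00373), a change larger than that of 90.9% of the tested genes. Without Ctrl replicate 3 it was 1.26. The GC content of its exons is 37.6%, and the GC correction left a log2 fold change of 0.35 (limma adjusted p = 0.0525), or 0.47 when Ctrl replicate 3 was left out as well (limma adjusted p = 0.00248).

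GNAI3 (ENSG00000065135, chromosome 1 from 109548615 to 109600195 on the plus strand) had 1319, 1467 and 1824 normalized counts in Ctrl and 2169, 1918 and 1878 in NE. The groups did not overlap, but Ctrl replicate 3 came close to the lowest NE library. It rose by 0.38 on the log2 scale (standard error 0.136, limma adjusted p = 0.0416). The adjusted p was over 0.05 without any 1 of the other 5 libraries, from 0.0731 to 0.153, and it was 0.000302 without Ctrl replicate 3. With 38.1% GC in its exons, GNAI3 turned to a fall of -0.25 after the GC correction (limma adjusted p = 0.0443), so its direction depends on the treatment of the GC trend.

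GNAI2 (ENSG00000114353, chromosome 3 from 50226292 to 50259362 on the plus strand), the ubiquitous Gi alpha, had 8691, 8569.6 and 7769 normalized counts in Ctrl and 5390.3, 5087 and 5047 in NE. The NE libraries were all lower and lay within a narrow range. GNAI2 fell, with a log2 fold change of -0.69 (standard error 0.0942, 95% confidence interval -0.90 to -0.48, limma adjusted p = 0.000521), at a GC content of 58.6%. After the GC correction it was -0.13 (limma adjusted p = 0.292), -0.23 with the GC and length correction (limma adjusted p = 0.039) and -0.08 when Ctrl replicate 3 was left out as well (limma adjusted p = 0.461). As a percent of the summed Gi alpha level per length, GNAI2 made up 87.8, 86.6 and 82.0 in the Ctrl libraries and 72.0, 73.1 and 73.7 in the NE libraries. GNAI3 made up 10.9, 12.1 and 15.8% in Ctrl and 23.7, 22.6 and 22.5% in NE, and GNAI1 1.25, 1.23 and 2.23% in Ctrl and 4.26, 4.39 and 3.83% in NE. GNAI2 was thus the main Gi alpha transcript in every library. The shares do not depend on library scaling but share the GC trend, as GNAI1 and GNAI3 are poor and GNAI2 is rich in GC. With canonical transcript lengths GNAI2 made up 94.4% in Ctrl and 88.1% in NE on average. With the GC trend removed its share was 79.8% in Ctrl and 80.3% in NE, those of GNAI3 18.04% and 16.7% and those of GNAI1 2.15% and 3.02%, so the directions for GNAI2 and GNAI3 turn with the correction. Of the 100-base stretches of their canonical transcripts, 0% of those of GNAI1 and GNAI2 and 4.52% of those of GNAI3 also occur in transcripts of other genes, those of GNAI3 in an unnamed lncRNA at its own locus (ENSG00000225113), so the paralogs do not share stretches of that length.

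The balance of the stimulatory to the inhibitory alpha transcripts was compared as the log2 ratio of GNAS to the summed Gi alpha level per length. It was -0.273, -0.217 and -0.101 in the Ctrl libraries and -0.177, -0.0445 and 0.00920 in the NE libraries, which overlap with these merged exon lengths. The difference was 0.13, beside SDs of 0.0874 in Ctrl and 0.0957 in NE (exact permutation test, two-sided, p = 0.2). That test cannot go below 0.1 here, so it does not decide whether the ratio differs. After the GC correction the difference was -0.00394. Which of the 2 was higher depends on the length used, since the merged exons of GNAS span 22221 bases and its canonical transcript 1854. With canonical lengths the log2 ratio was 1.69, 1.76 and 1.92 in the Ctrl libraries and 1.95, 2.07 and 2.12 in the NE libraries, which did not overlap, a difference of 0.25 (exact permutation p = 0.1). With these lengths GNAS was at 765 ± 42.1 FPKM and GNAI2 at 209 ± 8.74 in Ctrl (SD, n = 3).

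**Figure D2:**
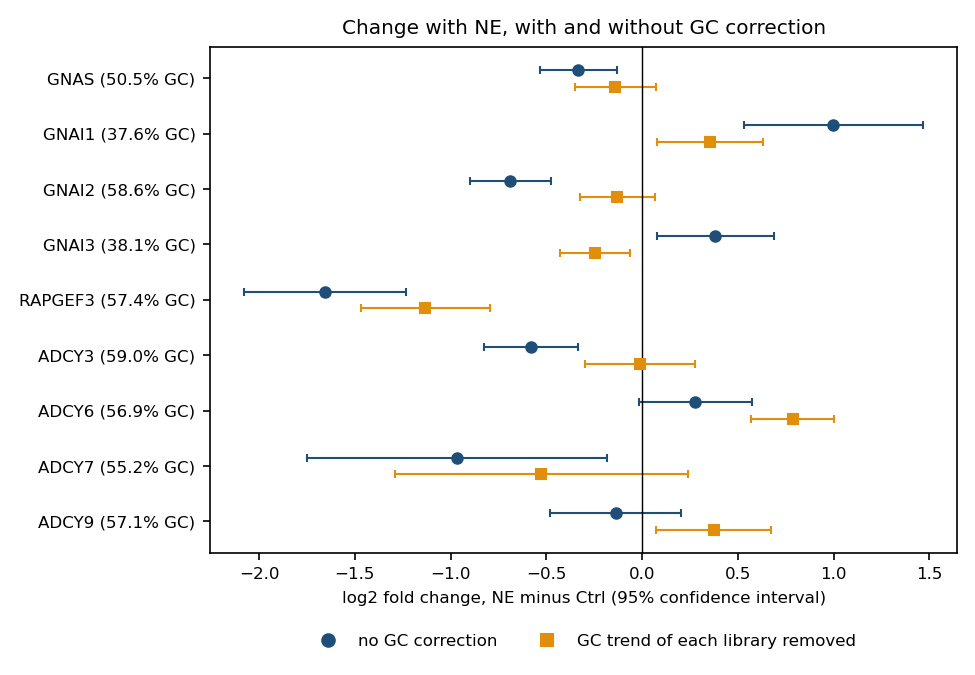
Log2 fold change of NE minus Ctrl with its 95% confidence interval from limma for the 9 tested members, without correction (blue circles) and after the GC trend of each library was removed (orange squares), with the GC content of the exons beside each name. RAPGEF3 lies below 0 in both, ADCY6 moves from 0.28 to 0.79, and ADCY3 moves from -0.58 to -0.01.

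Per length, ADCY3 was the most abundant adenylyl cyclase transcript in every library. ADCY3 (ENSG00000138031, chromosome 2 from 24819169 to 24920237 on the minus strand) had 1221, 1180.1 and 1261 normalized counts in Ctrl and 889, 801 and 760.3 in NE. All NE libraries were lower, by more than the spread within either group. It fell, with a log2 fold change of -0.58 (standard error 0.109, 95% confidence interval -0.83 to -0.34, limma adjusted p = 0.00225). After the GC correction the value was -0.01 (limma adjusted p = 0.957), at a GC content of 59.0%. CENPO, a kinetochore gene on the opposite strand, shares 23.0% of its exon bases and fell by 0.791 on the log2 scale (limma adjusted p = 0.000573), with -0.52 after the GC correction (limma adjusted p = 0.00419). The part of CENPO in the ADCY3 counts was not tested.

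ADCY6 (ENSG00000174233, chromosome 12 from 48766194 to 48789089 on the minus strand) had 659, 576 and 504 normalized counts in Ctrl and 665, 746 and 688 in NE. All NE libraries were above the Ctrl libraries, the lowest by a small margin over Ctrl replicate 1. The log2 fold change was 0.28 (standard error 0.132, 95% confidence interval -0.02 to 0.58, limma adjusted p = 0.106), so it did not pass the test. Its exons hold 56.9% GC, and after the GC correction ADCY6 rose by 0.79 (standard error 0.0971, limma adjusted p = 0.000363), with 0.78 when Ctrl replicate 3 was also left out. Its value was above 0 in all 23 fits, from 0.18 to 0.79, and had an adjusted p under 0.05 in 5 of them, the 4 with a GC correction and the fit on recomputed FPKM (limma adjusted p = 0.0406). An unnamed lncRNA (ENSG00000257653) on the opposite strand shares 8.43% of the exon bases.

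ADCY9 (ENSG00000162104, chromosome 16 from 3953387 to 4116442 on the minus strand) had 511, 484 and 414 normalized counts in Ctrl and 492, 432 and 361 in NE. The groups overlap almost completely. Its log2 fold change was -0.14 (standard error 0.153, 95% confidence interval -0.48 to 0.21, limma adjusted p = 0.473), and 0.37 after the GC correction (limma adjusted p = 0.0577). The sign therefore depends on the correction. With the correction and without Ctrl replicate 3 the value was 0.38 (limma adjusted p = 0.0439).

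ADCY7 (ENSG00000121281, chromosome 16 from 50246137 to 50318135 on the plus strand) had 78.5, 90.2 and 75.5 normalized counts in Ctrl and 48.4, 62.0 and 22.8 in NE. The NE libraries were lower but spread over a wide range, NE replicate 3 being the lowest. ADCY7 fell, with a log2 fold change of -0.97 (standard error 0.348, 95% confidence interval -1.75 to -0.18, limma adjusted p = 0.0433). The limma adjusted p was over 0.05 when any 1 of 4 libraries was left out. Without NE replicate 3 it was at -0.56 (limma adjusted p = 0.106). After the GC correction it was -0.53 (limma adjusted p = 0.267). BRD7, a bromodomain gene on the opposite strand, shares 41.8% of the exon bases of ADCY7 and rose by 0.448 on the log2 scale (limma adjusted p = 0.0157), with 0.33 after the GC correction (limma adjusted p = 0.0514). The ADCY7 counts are uncertain for this overlap.

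ADCY1 (ENSG00000164742, chromosome 7 from 45574140 to 45723116 on the plus strand) was low in all libraries. It had 9.42, 6.22 and 6.86 normalized counts in Ctrl and 14.8, 13.6 and 8.22 in NE. NE replicate 3 lay within the Ctrl range, so the groups overlap. The mean of 9.85 normalized counts kept it out of the test, and with no filter its log2 fold change was 0.61 (limma adjusted p = 0.481).

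Of the other cyclases, ADCY5, ADCY8 and ADCY10 were listed and none reached the minimum mean, while ADCY2 and ADCY4 were not listed. ADCY5, a cyclase of heart and striatum, had 1.05, 3.11 and 0 normalized counts in Ctrl and 9.88, 1.94 and 17.4 in NE, with overlapping groups. ADCY10, the soluble cyclase that bicarbonate activates, had 0 reads in the Ctrl libraries, where a count of 0 allows up to 3 reads per library, and 0.988, 12.6 and 3.66 normalized counts in NE replicates 1, 2 and 3. ADCY8 had 0, 4.15 and 0 normalized counts in Ctrl and 0, 0 and 0.914 in NE. At this depth no difference of these cyclases can be read.

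ADCY3 took a smaller and ADCY6 a larger part of the cyclase transcripts in every NE library. As a percent of the summed level of the 8 listed cyclases per length, ADCY3 made up 58.2, 59.2 and 64.4 in the Ctrl libraries and 50.9, 47.1 and 49.3 in the NE libraries. ADCY6 made up 23.9, 22.04 and 19.6% in Ctrl and 29.0, 33.5 and 34.0% in NE. For both genes the groups did not overlap, with differences of -11.53 and 10.30 percentage points (two-sided exact permutation p = 0.1, the lowest possible, with an adjusted p of 0.16 over the 8 shares). After the GC correction the differences were -10.39 and 9.70 percentage points, and the exons of both genes are close in GC content. The shares of a library add up to the whole, so these 2 differences are not independent. The log2 fold changes of ADCY3 and ADCY6 were -0.58 and 0.28 before the correction and -0.01 and 0.79 after it. The overlap of ADCY3 with CENPO also bears on its share. Without Ctrl replicate 3, which had the highest ADCY3 share, the differences were -9.61 and 9.18. ADCY9 made up 14.2 ± 1.12% in Ctrl and 15.6 ± 1.46% in NE (SD, n = 3), with overlapping groups, and ADCY7 3.04 ± 0.319% and 1.98 ± 0.818%.

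**Figure D3:**
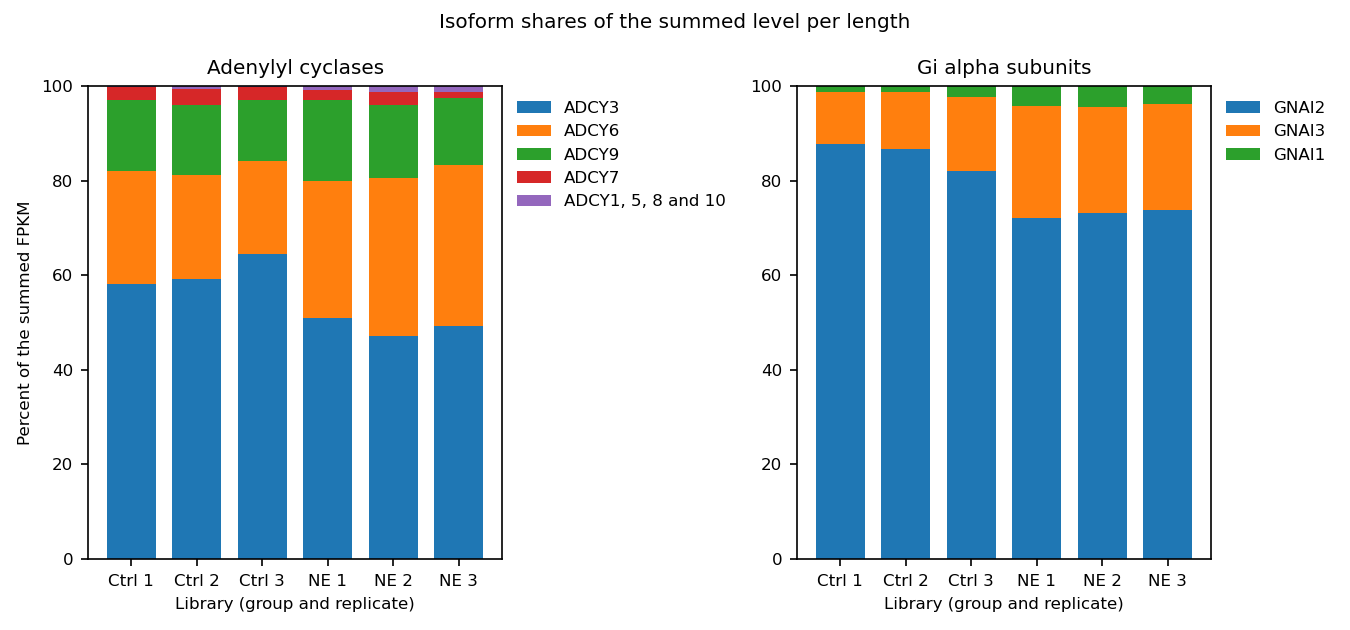
Share of each isoform in the summed FPKM, in percent, for the 8 listed adenylyl cyclases (left) and the 3 Gi alpha subunits (right), 1 stacked bar per library. ADCY3 takes less and ADCY6 more of the bar in the NE libraries, and GNAI2 takes 85.5% of the Gi alpha bar in Ctrl and 72.9% in NE on average, against 79.8% and 80.3% after the GC correction.

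The summed cyclase level was 17.9, 16.9 and 17.2 FPKM in the Ctrl libraries and 15.8, 16.1 and 15.2 in the NE libraries, lower in all NE libraries, with a mean ratio of 0.906 (two-sided exact permutation p = 0.1 on the log2 sum, the lowest possible). The direction depends on the processing: the log2 difference was -0.14 here, -0.28 on the scale of the authors' size factors and 0.26 after the GC correction. Recomputed FPKM moved the median log2 fold change of all genes to 0.13.

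Per length, the order of the 10 transcripts in Ctrl was led by GNAS and GNAI2, at 63.9 ± 3.51 and 62.5 ± 2.62 FPKM (merged exon length, SD, n = 3), whose libraries overlap. ADCY3 and GNAI3 followed at 10.5 ± 0.538 and 9.45 ± 1.78 FPKM and overlap as well. Below them came ADCY6 at 3.80 ± 0.453, ADCY9 at 2.45 ± 0.222 and RAPGEF3 at 2.15 ± 0.411, the last 2 with overlapping libraries. GNAI1 had 1.15 ± 0.409, ADCY7 0.525 ± 0.0437 and ADCY1 0.0298 ± 0.00654 FPKM. In NE the order was GNAS at 55.7 ± 3.46, GNAI2 at 42.6 ± 0.628, GNAI3 at 13.4 ± 0.538, ADCY3 at 7.71 ± 0.296 and ADCY6 at 5.05 ± 0.417 FPKM. ADCY9 and GNAI1 had 2.45 ± 0.275 and 2.43 ± 0.155 FPKM and overlap, and RAPGEF3 at 0.739 ± 0.0703 stood below both, above ADCY7 at 0.313 ± 0.137 and ADCY1 at 0.0530 ± 0.0135. The order depends on the length: with canonical transcript lengths the Ctrl means were 765 ± 42.1 for GNAS and 209 ± 8.74 for GNAI2, and 4.13 ± 0.791 for RAPGEF3 and 3.26 ± 0.295 for ADCY9, and the NE means were 5.83 ± 0.372 for GNAI1 and 3.26 ± 0.366 FPKM for ADCY9.

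**Figure D4:**
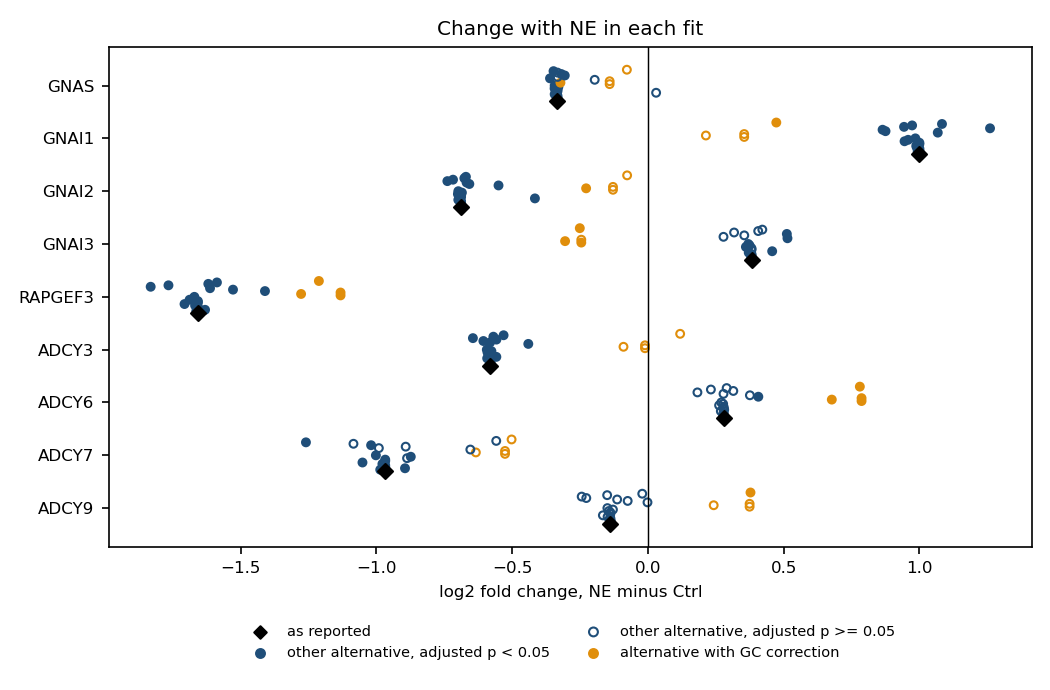
Log2 fold change of NE minus Ctrl for the 9 tested members in each of the 23 fits, with the reported value as a black diamond, alternatives with a GC correction in orange and all others in blue, and open circles where the adjusted p was at least 0.05. RAPGEF3 stays below 0 with filled points throughout, and ADCY9, GNAI3, GNAS and ADCY3 have points on both sides of 0.

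Around these members, 64 of 75 other genes of the pathway, in 6 lists, were in the table and 53 were tested. Of these, 16 rose and 12 fell, beside 24.6% and 25.5% of all tested genes. The median log2 fold change was 0.20 against 0.01 over all tested genes, and 0.07 against -0.01 after the GC correction. With that correction 12 were higher and 6 lower, beside 14.6% and 17.7% of all genes. None of the 5 other cyclases was tested. Of the 7 other G alpha genes tested, 4 rose (GNAL, GNAO1, GNAQ and GNA13) and 1 fell (GNA11), with a median of 0.65. The shares of all tested genes were again 24.6% and 25.5%. GNAO1 was tested only because of its NE values.

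GNAO1, the gene of Go alpha, an abundant alpha subunit of the brain, had 10.5, 14.5 and 0 normalized counts in Ctrl and 41.5, 63.0 and 44.8 in NE. It had no read in Ctrl replicate 3, and the NE libraries all lay above those of Ctrl. Its Ctrl mean of 8.33 normalized counts was under the minimum of 10, so GNAO1 was tested only because of its NE values. Its adjusted p is therefore no support for a rise. The log2 fold change was 3.15 (limma adjusted p = 0.0175) and 3.52 after the GC correction (limma adjusted p = 0.0111), and 1.90 without Ctrl replicate 3. The limma adjusted p was 0.0524 with a pseudocount of 0.1 and from 0.0543 to 0.0639 when an NE library was left out, and DESeq2 gave a log2 fold change of 2.59. GNAQ, the gene of Gq alpha, which activates phospholipase C, rose by 0.89 (limma adjusted p = 0.00167) and its close paralog GNA11 fell, at -0.57 (limma adjusted p = 0.00332). After the GC correction these were 0.41 (adjusted p = 0.0189) and 0.07 (adjusted p = 0.526), both from limma. GNA13, the gene of another G alpha subunit, rose by 0.65 (limma adjusted p = 0.0385), with overlapping groups, and the GC correction left 0.04 (limma adjusted p = 0.835).

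Of 12 G beta and gamma genes tested, 1 rose and 2 fell, beside 24.6% and 25.5% of all tested genes. Their median log2 fold change was 0.10. GNB2 and GNG5 fell, at -0.90 and -0.83 (limma adjusted p = 0.000426 and 0.00934), and remained lower after the GC correction, at -0.24 and -1.35 (limma adjusted p = 0.0372 and 0.00313). GNG12 rose by 0.59 (limma adjusted p = 0.0222) and was at -0.06 after that correction (adjusted p = 0.686). Of the 10 chaperones and modulators of G alpha subunits, 4 rose and 4 fell, beside the same shares of 24.6% and 25.5%, with a median of 0.07. GPSM2, whose GoLoco motifs bind Gi alpha with GDP, had 313, 331 and 273 normalized counts in Ctrl and 959, 1054 and 869 in NE. It rose, with a log2 fold change of 1.65 (limma adjusted p = 5.82e-05) and 1.10 after the GC correction (limma adjusted p = 0.000938). Its paralog GPSM1 fell, at -1.18 (limma adjusted p = 0.00115), and at -0.50 with the correction (limma adjusted p = 0.0118). GPSM3, another GoLoco protein, fell at a low level, at -1.81 (limma adjusted p = 0.0108), and was at -1.27 with the correction (limma adjusted p = 0.06). NUCB2, which also binds Gi alpha, rose by 1.31 (limma adjusted p = 8.24e-05) and 0.89 with the correction (limma adjusted p = 0.000322).

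On the EPAC and RAP branch 6 of 19 tested genes rose and 5 fell, beside 24.6% and 25.5% of all tested genes. Their median log2 fold change was 0.20. After the GC correction 3 were higher and 2 lower, beside 14.6% and 17.7% of all genes. Beside RAPGEF4, the genes that rose included RAPGEF2, another exchange factor for RAP proteins. It had 276, 309 and 336 normalized counts in Ctrl and 818, 652 and 613 in NE. RAPGEF2 rose by 1.17 (limma adjusted p = 0.00038) and 0.80 after the GC correction (limma adjusted p = 0.00117), in the opposite direction to RAPGEF3. RAPGEF1, at a higher level, fell as RAPGEF3 did, at -0.83 (limma adjusted p = 0.000691), and was at -0.27 with the correction (limma adjusted p = 0.068). RAPGEF5 and RAPGEF6 did not pass the test. RAP1B rose by 0.79 (limma adjusted p = 0.000693), and was at 0.16 with the correction (limma adjusted p = 0.142). RAP1A did not pass the test, at 0.08, and was at -0.52 with the correction (limma adjusted p = 0.00358). RAP2A, a RAP GTPase, rose by 1.06 (limma adjusted p = 0.0011), and 0.44 with the correction (limma adjusted p = 0.0148). Its paralog RAP2B fell, at -0.66 (limma adjusted p = 0.00659) and -1.13 with the correction (limma adjusted p = 0.00026), and RAP2C did not pass the test. RAP1GAP, which stimulates GTP hydrolysis by RAP1, fell at a low level, at -1.29 (limma adjusted p = 0.0103), and was at -0.66 with the correction (adjusted p = 0.147). Its paralog RAP1GAP2 was at a higher level and rose, by 0.74 (limma adjusted p = 0.00247) and 1.29 with the correction (limma adjusted p = 9.06e-06). Of 5 tested genes for other cAMP-binding or cAMP-exporting proteins, 1 rose and 0 fell, beside 24.6% and 25.5% of all tested genes. That gene was BVES, a membrane protein of the Popeye family that binds cAMP, at 0.67 (limma adjusted p = 0.00192) and 0.34 after the GC correction (limma adjusted p = 0.0238). With that correction 2 of these genes were higher and 1 lower, beside 14.6% and 17.7% of all genes. HCN3 was then also higher, at 0.91 (limma adjusted p = 0.00864), and POPDC3, another Popeye gene, lower, at -0.39 (limma adjusted p = 0.0327).

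**Figure D5:**
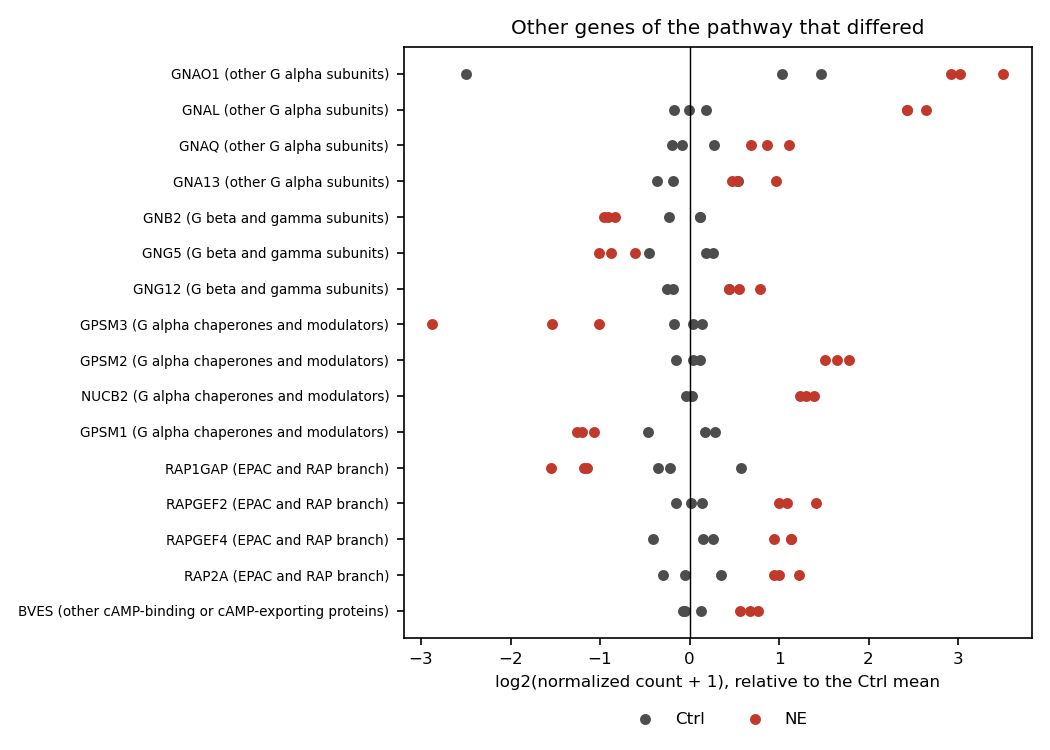
Normalized counts of the 16 named pathway genes in each library as log2(value + 1) minus the Ctrl mean, with Ctrl libraries in grey and NE libraries in red. GNAL and GPSM2 show the NE libraries close together and apart from Ctrl, while the low-count genes GNAO1 and GPSM3 spread widely.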

How the data were processed

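RNA of NCI-H1299 cells, 3 Ctrl and 3 NE libraries, was measured by RNA-seq (TRIzol, NEBNext Ultra). Per the labels, HISAT2 2.0.5 (hg38) and featureCounts 1.5.0-p3 were used by the authors. The annotation and the strand setting are not given in the sources used here. FPKM is the unit the methods name, whereas the deposited values are a signal made from read counts and a factor for each library: 100% of them were whole multiples of what 1 read is worth, within 0.05 of a read. Columns were assigned by the letter and number in their names. The main test was limma 3.58.1 (R 4.3.3) with eBayes trend on log2(value + 1).

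The reads recovered on genes (16852751 to 17979206 per library) were used for edgeR 4.0.16, DESeq2 1.42.0, voom and FPKM, with merged exon lengths of GENCODE v44. The GC correction removed from each library a natural spline with 5 degrees of freedom on exonic GC content, for the 25813 of 26025 genes whose identifier matched. As molecules were not tagged, the limit given for a count of 0 covers counting error only.

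The members and lists were chosen with earlier results of these data known, so no p was adjusted over a list and no set test was run. Named genes were the 10 members and, per list, up to 4 genes with the largest absolute log2 fold change among those past the threshold. GNA11, ADCY5, ADCY8, ADCY10 and the genes that overlap members were added after their values were seen. So were RAPGEF1, RAPGEF5, RAPGEF6, RAP1A, RAP1B, RAP1GAP2, RAP2B, RAP2C, HCN3 and POPDC3. Alternatives were other pseudocounts, filters, scalings, tools, lengths, a replicate block, GC corrections and each library left out. Canonical transcript lengths, the size-factor scale for the summed cyclases the GC correction without Ctrl replicate 3 and that of the Gi alpha shares and overlapping genes were added after seeing the data. The limma fits, with and without the GC correction, were tested on simulated data. These held no GC trend, so they cannot show how the correction acts on the trend in these libraries. A marker fixed for the cell line is not reported here.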

Additional observations from a re-analysis of the deposited data

How the results depend on the processing

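RAPGEF3 stayed lower with an adjusted p under 0.05 in all 22 alternatives. The cause was not tested for any change given here. As reported, 2 members were higher and 5 lower. The number higher was 1 with no filter, with eBayes without trend, with the replicate block, with the GC correction, with the GC and length correction and with the replicate block and GC correction together, and 3 with recomputed FPKM and with the GC correction without Ctrl replicate 3. The number lower was 3 with no filter and with recomputed FPKM, and 1 with the replicate block and GC correction. It was 2 with the GC correction, with all libraries and without Ctrl replicate 3. With the GC and length correction, quantile normalization, eBayes without trend and edgeR it was 4. With the 2-fold criterion 1 member was higher with a pseudocount of 0.1 and with recomputed FPKM, where 0 were as reported, and 2 were lower with quantile normalization and voom, where 1 was. GNAI1 lay just under the criterion, at 0.9996 on the log2 scale. Of the other pathway genes 16 were higher and 12 lower, and the number lower was 6 with the GC correction and 4 with the replicate block and GC correction.

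With 1 library left out at a time, the members higher ran from 1 to 2, those lower from 3 to 5, those past the 2-fold criterion from 0 to 1 higher and from 1 to 2 lower, and the other pathway genes from 12 to 25 higher and from 10 to 13 lower. The most pathway genes were higher without Ctrl replicate 3. The share of ADCY8 ran from -0.123 to 0.0287 percentage points, reversed without Ctrl replicate 2, the only Ctrl library with reads of it.

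The GC correction reversed ADCY9 (0.37), GNAI3 (-0.25), GNG12 (-0.0574), the summed cyclase level (0.26) and the GNAS to Gi alpha ratio (-0.00394). The GC and length correction reversed ADCY9 (0.24) and GNAI3 (-0.31), and the GC correction without Ctrl replicate 3 reversed ADCY3 (0.12), ADCY9 (0.38) and GNAI3 (-0.25). Quantile normalization reversed GNAS (0.0302). The replicate block with GC correction gave the same values as the GC correction alone for ADCY9 (0.37), GNAI3 (-0.25) and GNG12 (-0.0574). With the replicate block alone GNAI3 had an adjusted p of 0.0883 from limma. Over all genes it gave 3150 higher and 3358 lower, where 3693 and 3828 were reported. Same-numbered Ctrl and NE libraries had deviations from their group means with correlations of -0.163, 0.0799 and -0.151 for numbers 1, 2 and 3, and 1 of the 6 libraries correlated best with its own number, so the numbers were not taken as pairs. The GC correction left 2176 genes higher and 2644 lower over the table, and 1633 and 2035 with the replicate block added. The median log2 fold change of all genes was 0.122 with no filter and 0.133 with recomputed FPKM, against 0.00974 as reported. The exact permutation tests cannot pass 0.05 with these libraries and say nothing about stability.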
